A study of Mus musculus with 9 samples.

Results

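Skeletal muscle contracts through the sarcomere, a repeating unit of thick myosin and thin actin filaments, and 40 genes of that unit, of its calcium control and of its energy supply were followed here in mouse skin. They were chosen by name, as the rows of the deposited count table whose gene symbol is one of the 40, out of 54456 genes in the table. All 40 were in the table, and all 40 passed the filter on low counts that left 26081 genes for testing. By role they were divided into 9 isoforms typical of slow fibres, 15 typical of fast fibres, 2 developmental myosins, 3 tropomyosins, 7 other structural genes of the sarcomere and 4 genes of calcium coupling and energy supply.

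The study concerns immune-mediated alopecia in mice, and polyadenylated RNA of skin lesions described as AA-like was sequenced in 9 libraries. In 3 of them the skin had been treated with microneedles (MN) loaded with IL-2 and CCL22, here called loaded MN. Microneedles are short needles that carry a substance into the skin, IL-2 makes T cells grow, and CCL22 is a chemokine that draws in CCR4-bearing cells. Another 3 libraries came from skin treated with MN that carried nothing (empty MN), and 3 from untreated lesions. Strain, sex, age, body site and time of sampling are not given in the labels. Whether each library stands for its own animal is not stated in the labels. The p-values reflect the spread among these libraries alone, and that spread may be technical.

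Muscle fibres make slow or fast versions of most sarcomere proteins, each from its own gene. The slow myosin heavy chain is Myh7, and the fast ones are Myh2 (type IIa), Myh1 (type IIx) and Myh4 (type IIb), in order of rising shortening speed. Embryonic Myh3 and perinatal Myh8 belong to developing and regenerating fibres. Mouse skin rests on a thin sheet of striated muscle, the panniculus carnosus, beneath the fat of the dermis. In whole skin, a change in the number of muscle cells and a change in RNA per muscle cell cannot be told apart.

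The myosin heavy chain genes Myh7, Myh4 and Myh1 carried the clearest contrasts below, and their promoters are shown so that the differing members can be set side by side. Each sequence is the 250 bases before the transcription start, from RefSeq on build GRCm38.p6, on the strand of the gene. Capitals mark matches to the E-box CANNTG, the core sequence bound by MyoD and other basic helix-loop-helix factors, and to the A/T-rich MEF2 motif, searched on both strands. For Myh7 the downstream of 2 listed starts was used.
Myh7, chr14:54994550-54994799, minus strand: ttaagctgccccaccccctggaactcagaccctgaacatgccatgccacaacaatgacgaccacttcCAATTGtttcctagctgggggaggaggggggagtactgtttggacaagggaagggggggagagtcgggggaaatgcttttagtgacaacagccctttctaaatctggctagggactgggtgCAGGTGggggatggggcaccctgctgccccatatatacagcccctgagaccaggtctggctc
Myh4, chr11:67237562-67237811, plus strand: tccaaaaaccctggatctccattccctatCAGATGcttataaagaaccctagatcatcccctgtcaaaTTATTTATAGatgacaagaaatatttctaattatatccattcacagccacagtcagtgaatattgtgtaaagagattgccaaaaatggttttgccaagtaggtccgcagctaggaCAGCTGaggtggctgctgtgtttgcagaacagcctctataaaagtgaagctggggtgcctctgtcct
Myh1, chr11:67199852-67200101, plus strand: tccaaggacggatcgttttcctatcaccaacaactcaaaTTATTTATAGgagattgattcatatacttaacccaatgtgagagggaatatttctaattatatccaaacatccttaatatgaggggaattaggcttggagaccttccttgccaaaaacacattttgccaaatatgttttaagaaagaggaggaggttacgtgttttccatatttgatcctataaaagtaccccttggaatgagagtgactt

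The Myh4 and Myh1 windows shared the MEF2 match TTATTTATAG and an unbroken run of 20 bases, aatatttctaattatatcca, which began 163 bases before the start of Myh4 and 165 bases before that of Myh1. The Myh4 window also held 2 E-boxes, the Myh7 window held 2 E-boxes and no MEF2 match, and the Myh1 window held no E-box. E-boxes are common: 66.2% of 32851 mouse promoter windows of this length held one, against 2.92% for the MEF2 motif. Promoters were listed for 32 of the 40 genes, with 40 starts in all, of which 34 windows held an E-box and 6 a MEF2 match. These matches describe the letters only.

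The skin libraries differed in total muscle RNA and in which muscle isoforms it held. Summed over the 40 genes, the level was 14038 to 14846 CPM (counts on a scale of equal library sizes) in loaded MN libraries, 19442 to 22835 CPM in empty MN libraries and 15525 to 15896 CPM in untreated libraries. Empty MN skin therefore stood above both other groups, and its replicate 3 held the highest sum. As a share of all counts the genes made up 1.46% to 1.54% in loaded MN, 1.97% to 2.34% in empty MN and 1.44% to 1.51% in untreated libraries. Without TMM factors, on that scale, loaded MN and untreated libraries thus overlapped. Total counts ran from 85962714 to 96740589 per library.

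In loaded MN against untreated skin, edgeR's quasi-likelihood test called 5 of the 40 genes higher and 19 lower at a Benjamini-Hochberg adjusted p under 0.05 over all tested genes, and 16 were not called. Of all tested genes, 19% were called higher and 23.3% lower in that comparison. The median log2 fold change of the 40 was -0.13, against -0.01 over all tested genes. That split depended on the scaling: with library size alone in place of TMM factors, 9 genes were called higher and 9 lower, and the median was -0.0010, while the median of all tested genes moved up by 0.13. Without untreated replicate 1, the number called higher was 3 in place of 5. Of the 26666 genes tested in that fit, 9915 were called in either direction.

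In empty MN against untreated skin, 27 of the 40 were higher, 4 lower and 9 not called, where 20.2% of all tested genes were called higher and 28.1% lower. The median of the 40 was 0.30, against -0.02 over all tested genes. In loaded MN against empty MN skin, 6 were higher, 29 lower and 5 not called, where the shares over all tested genes were 22.9% and 18.5%. That median was -0.49, against 0.02 over all tested genes. Without empty MN replicate 3, the library with the highest sum, 28 genes were called higher and 3 lower against untreated skin, and 6 higher and 29 lower in loaded MN against empty MN. Of the 26446 genes tested in that fit, 11902 and 9764 were called in either direction in those comparisons. The 3 comparisons share libraries (the untreated ones between the first pair, the empty MN ones between the last pair), so they are not independent of each other.

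Changes of 2-fold or more were few. They were called for Myh7 and Myl2 in loaded MN against untreated skin, for Myh7 and Myh4 in loaded MN against empty MN skin, and for none of the 40 in empty MN against untreated skin, where 1.92%, 1.97% and 2.33% of all tested genes passed the same rule. All 4 of those called values were higher in loaded MN.

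**Figure D1:**
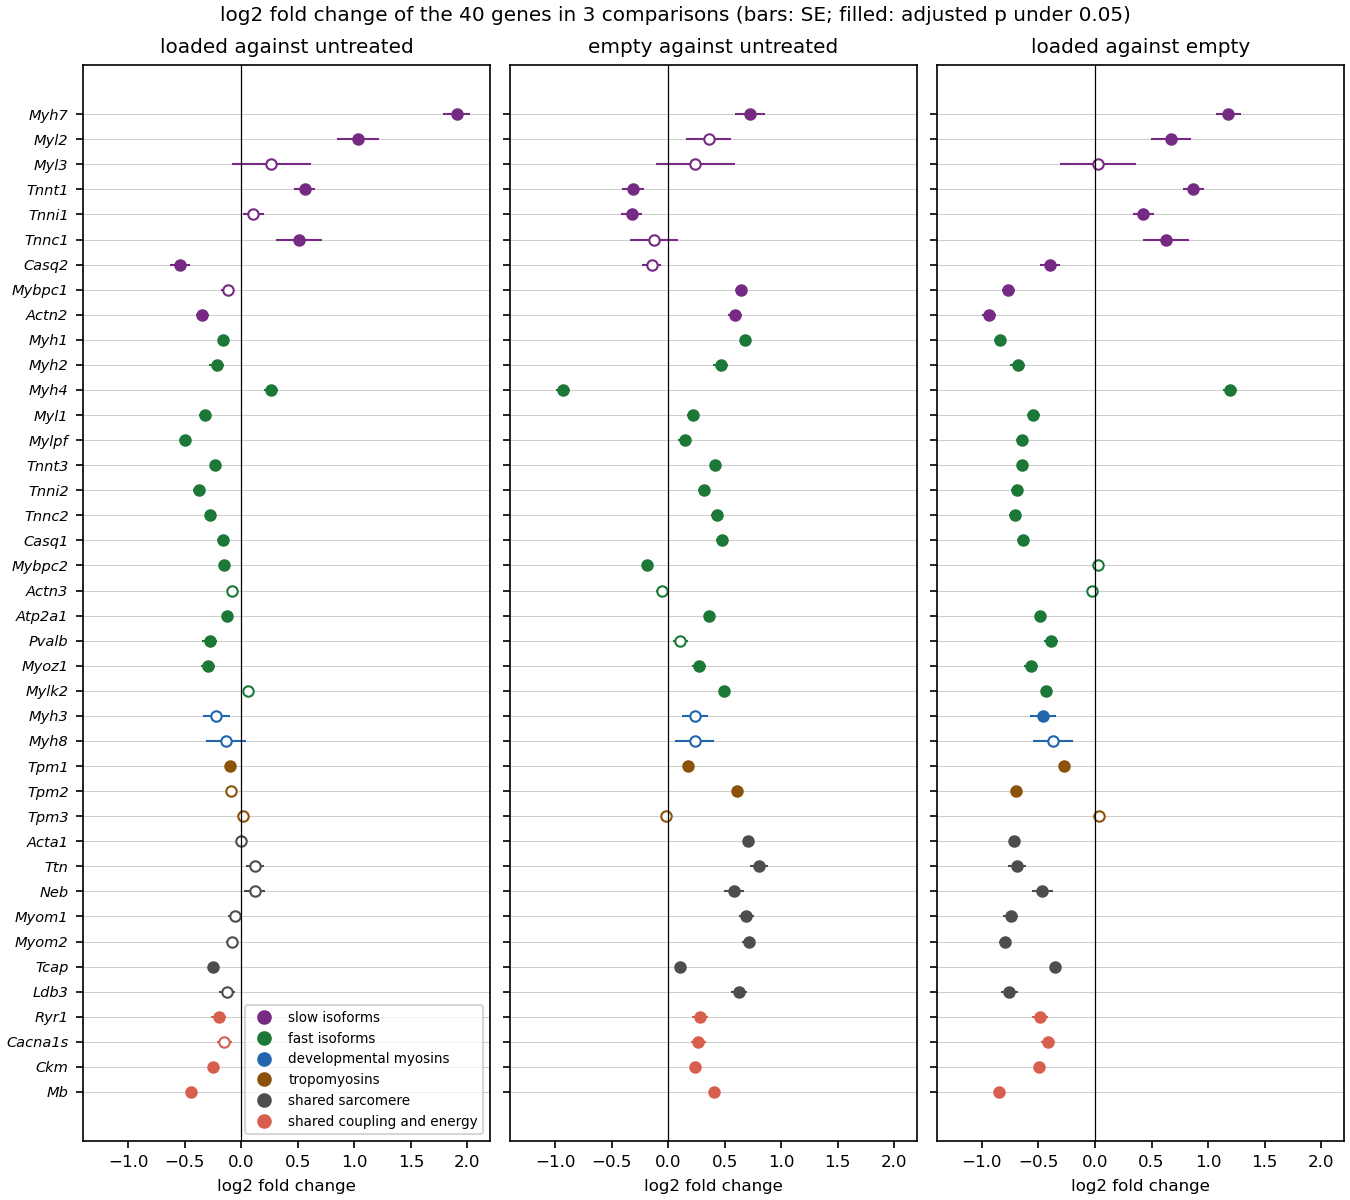
log2 fold change of each of the 40 genes (rows, grouped by role) in loaded MN against untreated, empty MN against untreated and loaded MN against empty MN skin. Points are edgeR estimates, bars are their standard errors, and filled points have an adjusted p under 0.05. Most genes lie right of 0 in the empty MN against untreated panel and left of 0 in the loaded MN against empty MN panel, while Myh4 lies on the other side in both, at -0.93 and 1.20.

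Skeletal actin and the fast troponins had the highest levels. Per kilobase of coding sequence, the highest of the 40 in untreated skin was skeletal actin Acta1 at 1717 CPM, followed by the fast troponins Tnnt3 at 1300, Tnnc2 at 1110 and Tnni2 at 1010 CPM. On the same scale the slow troponins stood at 6.79 (Tnni1), 3.94 (Tnnt1) and 1.10 CPM (Tnnc1), and slow myosin Myh7 was the lowest of all at 0.178 CPM. Introns were counted with exons here, so this scale is approximate.

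Among the fast genes, Myh4 moved against the rest. Its level (gene at chr11:67128855-67151272, mm39) was 1103, 1171 and 1288 CPM in loaded MN libraries, 494, 496 and 566 CPM in empty MN libraries, and 986, 1026 and 960 CPM in untreated libraries. No 2 groups overlapped: every loaded MN library was above every untreated one, and every empty MN library was at about the same low level. The log2 fold change of Myh4, the fastest of these motor proteins, was 0.26 (SE 0.0618, adjusted p = 0.0043 by edgeR) in loaded MN against untreated skin and -0.93 (SE 0.0624, adjusted p = 5.52e-08) in empty MN against untreated skin. Between the devices it was 1.20 (SE 0.0627, adjusted p = 6.66e-09), or 2.29-fold higher in loaded MN. The call against untreated skin was lost without untreated replicate 1 (0.26, adjusted p = 0.0617).

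Myh1 (chr11:67090878-67115401) went the other way. It had 1414, 1451 and 1402 CPM in loaded MN, 2389, 2428 and 2830 CPM in empty MN and 1544, 1621 and 1596 CPM in untreated libraries, again with no overlap between groups. This type IIx myosin was lower in loaded MN than in untreated skin (log2 -0.16, SE 0.0491, adjusted p = 0.0132 by edgeR) and higher in empty MN than in untreated skin (log2 0.68, adjusted p = 4.52e-10). It was lower in loaded MN than in empty MN (log2 -0.84, adjusted p = 2.86e-11). The first of these calls was lost, at adjusted p = 0.0508, without loaded MN replicate 3 or without untreated replicate 2, and with library size alone (log2 -0.03).

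Myh2 (chr11:67061853-67088343), the type IIa myosin, followed Myh1. Its levels were 165, 171 and 168 CPM in loaded MN, 251, 252 and 304 CPM in empty MN and 189, 200 and 196 CPM in untreated libraries. The groups did not overlap, and empty MN replicate 3 was again the highest library. The log2 fold changes were -0.22 (adjusted p = 0.0215 by edgeR), 0.46 (adjusted p = 0.000147) and -0.68 (adjusted p = 8.89e-06) in loaded MN against untreated, empty MN against untreated and loaded MN against empty MN skin. The first was called in none of the fits without any 1 loaded MN library other than replicate 2, or without any 1 untreated library (adjusted p = 0.0530 to 0.0779), nor with library size alone.

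These 3 genes lie next to each other on chromosome 11 and are close copies. In reference transcripts, 26.7% of the 50-base stretches of Myh1, 26.9% of those of Myh2 and 18.9% of those of Myh4 occurred in another gene, mostly each other, so some of their reads may have been counted for a neighbour or not at all.

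The make-up of the myosin heavy chain RNA, which does not depend on how libraries are scaled, showed the same contrast within each library. Of the counts of the 6 skeletal heavy chain genes, Myh4 held 40.9%, 41.6% and 44.7% in loaded MN, 15.7%, 15.5% and 15.2% in empty MN and 36.0%, 35.8% and 34.6% in untreated libraries. Myh1 held 50.9% ± 1.9 in loaded MN, 75.9% ± 0.14 in empty MN and 56.8% ± 0.65 in untreated libraries (SD, n = 3 each). The share of Myh2 was 5.84% to 6.09% in loaded MN, 7.89% to 8.17% in empty MN and 6.92% to 7.07% in untreated libraries. For each 100 counts of Myh4 there were 120 ± 10 counts of Myh1 in loaded MN, 491 ± 8.6 in empty MN and 160 ± 5.3 in untreated libraries.

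**Figure D2:**
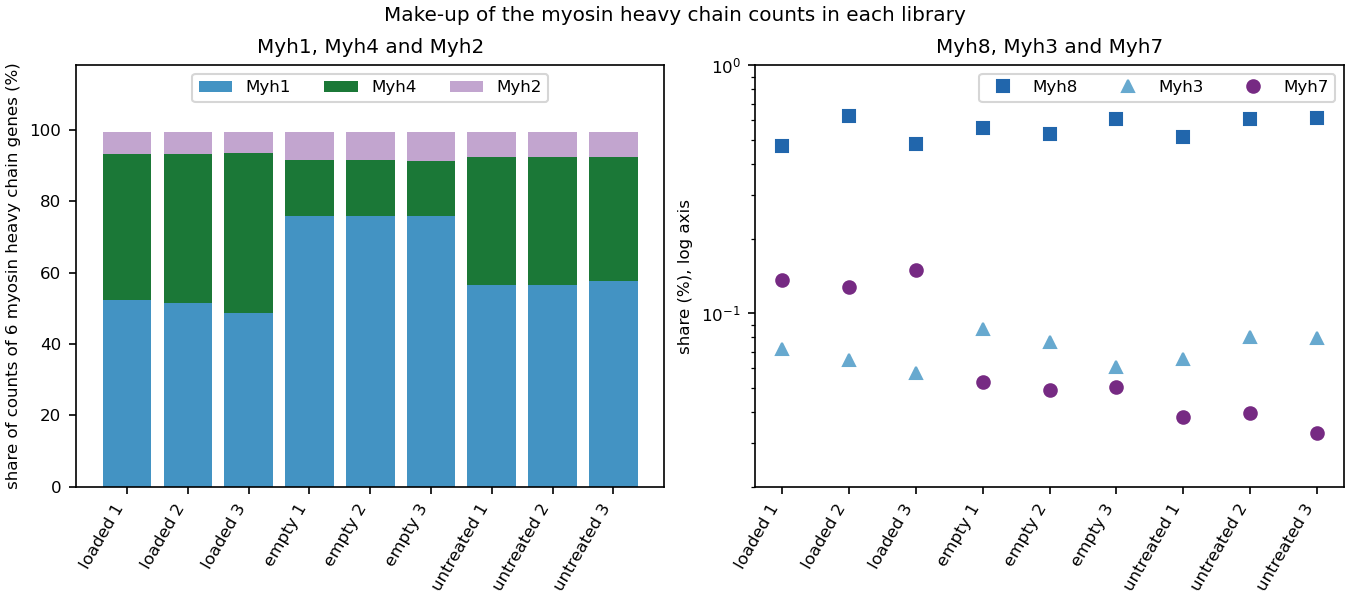
Share of each of 6 myosin heavy chain genes in their summed counts (%, y axis) in each of the 9 libraries (x axis). The left panel stacks Myh1, Myh4 and Myh2 on a linear axis and the right panel gives Myh8, Myh3 and Myh7 on a log axis. The 3 empty MN libraries hold 15.2% to 15.7% Myh4, the lowest of the groups, and the 3 loaded MN libraries hold the highest shares of Myh4 and of Myh7.

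Most other fast genes moved with Myh1. Of the 15 fast isoforms, 1 (Myh4) was higher and 12 were lower in loaded MN against untreated skin, 11 were higher and 2 (Myh4 and Mybpc2) lower in empty MN against untreated skin, and 1 was higher and 12 lower in loaded MN against empty MN skin. The medians of the 15 were -0.22, 0.31 and -0.57. Among all tested genes the shares higher and lower were 19% and 23.3%, 20.2% and 28.1%, and 22.9% and 18.5%, in the same order of comparisons. With library size alone, the loaded MN against untreated calls of Myh1, Myh2, Tnnt3, Casq1, Mybpc2, Atp2a1, Pvalb and Myoz1 were lost, and the estimate for Atp2a1 turned slightly positive (0.0077).

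Tnnt3, the fast troponin T that ties troponin to tropomyosin, had 856, 897 and 958 CPM in loaded MN, 1345, 1391 and 1515 CPM in empty MN and 1067, 1067 and 1049 CPM in untreated libraries. The groups stood apart, with empty MN highest and loaded MN lowest. Its log2 fold changes were -0.23 (adjusted p = 7.87e-05 by edgeR) against untreated skin for loaded MN, 0.42 (adjusted p = 8.08e-09) for empty MN and -0.65 (adjusted p = 4.15e-12) between the devices. Tnni2, the fast inhibitory subunit, had 419, 445 and 469 CPM in loaded MN, 667, 710 and 771 CPM in empty MN and 604, 565 and 558 CPM in untreated libraries, with log2 fold changes of -0.37, 0.31 and -0.69. Tnnc2, the fast calcium-binding subunit, had 415, 443 and 463 CPM in loaded MN, 659, 720 and 775 CPM in empty MN and 540, 541 and 517 CPM in untreated libraries, with log2 fold changes of -0.27, 0.43 and -0.70. Ube2c, which overlaps Tnnc2 on the opposite strand, had 5.17% as many counts. Thus all 3 fast troponin subunits were called in all 3 comparisons and kept the same order of groups.

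The fast light chains differed mainly between loaded MN and the other groups. Mylpf, the fast regulatory light chain, had 295, 312 and 312 CPM in loaded MN, 441, 474 and 522 CPM in empty MN and 460, 427 and 411 CPM in untreated libraries. Loaded MN libraries lay below all others, while empty MN and untreated libraries overlapped. Its log2 fold changes were -0.50 (adjusted p = 7.11e-06 by edgeR) in loaded MN against untreated, 0.15 (adjusted p = 0.0467) in empty MN against untreated and -0.65 (adjusted p = 4.58e-07) in loaded MN against empty MN skin. The middle call was lost without loaded MN replicate 3, empty MN replicate 2, untreated replicate 2 or untreated replicate 3 (adjusted p = 0.0627 to 0.140). Myl1, the fast essential light chain, had 189, 197 and 201 CPM in loaded MN, 260, 284 and 312 CPM in empty MN and 255, 243 and 238 CPM in untreated libraries, and was called in all 3 comparisons (-0.32, 0.22 and -0.54).

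Calcium handling genes of fast fibres kept the group order of the fast troponins. Atp2a1, the fast calcium pump of the sarcoplasmic reticulum, had 1275, 1320 and 1331 CPM in loaded MN, 1705, 1773 and 2023 CPM in empty MN and 1388, 1469 and 1424 CPM in untreated libraries. Loaded MN was lowest and empty MN highest without overlap, with log2 fold changes of -0.12 (adjusted p = 0.0434 by edgeR), 0.36 (adjusted p = 2.48e-06) and -0.49 (adjusted p = 5.45e-08). The first of these was called in none of the fits that left out any 1 loaded MN library, any 1 untreated library or empty MN replicate 2 (adjusted p = 0.0638 to 0.150). Casq1, which stores calcium in the reticulum of fast fibres, had 70.8, 74.6 and 77.8 CPM in loaded MN, 108, 112 and 128 CPM in empty MN and 84.0, 82.6 and 83.8 CPM in untreated libraries (log2 -0.17, 0.47 and -0.64). All 3 differences were called, and the first was lost without loaded MN replicate 1, untreated replicate 1 or untreated replicate 3 (adjusted p = 0.0530 to 0.128).

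Pvalb, the calcium-binding parvalbumin of fast fibres, had 128, 145 and 147 CPM in loaded MN, 171, 184 and 196 CPM in empty MN and 181, 166 and 164 CPM in untreated libraries. It was lower in loaded MN than in untreated skin (log2 -0.28, adjusted p = 0.0047 by edgeR) and than in empty MN skin (log2 -0.39, adjusted p = 0.000512), and in empty MN against untreated skin it was not called (log2 0.11, adjusted p = 0.196), though it was called without empty MN replicate 1 (0.15) and in 5 alternative fits. Mylk2, the kinase of the skeletal light chain, had 71.6, 72.8 and 75.8 CPM in loaded MN, 91.4, 98.8 and 107 CPM in empty MN and 69.3, 71.5 and 70.0 CPM in untreated libraries. It was higher in empty MN than in untreated skin (0.50) and lower in loaded MN than in empty MN (-0.43), and was not called in loaded MN against untreated skin (0.06, adjusted p = 0.283), though it was with library size alone (0.20, adjusted p = 0.00162). Myoz1, a Z disc partner of calcineurin in fast fibres, averaged 69.3 ± 3.0, 103 ± 10 and 85.2 ± 1.5 CPM in loaded MN, empty MN and untreated libraries and was called in all 3 comparisons.

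Actn3 and Mybpc2 did not share the rise in empty MN skin. Actn3, the alpha-actinin of fast fibres, had 208, 218 and 226 CPM in loaded MN, 206, 215 and 242 CPM in empty MN and 225, 237 and 228 CPM in untreated libraries. The groups overlapped and no comparison was called (log2 -0.08, -0.06 and -0.03, adjusted p = 0.211 to 0.721 by edgeR). Mybpc2, the fast myosin-binding protein C, had 299, 316 and 315 CPM in loaded MN, 284, 295 and 331 CPM in empty MN and 343, 349 and 343 CPM in untreated libraries. It was lower than untreated in both treated groups, with log2 fold changes of -0.16 in loaded MN and -0.18 in empty MN skin, and was not called between them (0.03, adjusted p = 0.638); with library size alone neither of the first 2 was called.

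**Figure D3:**
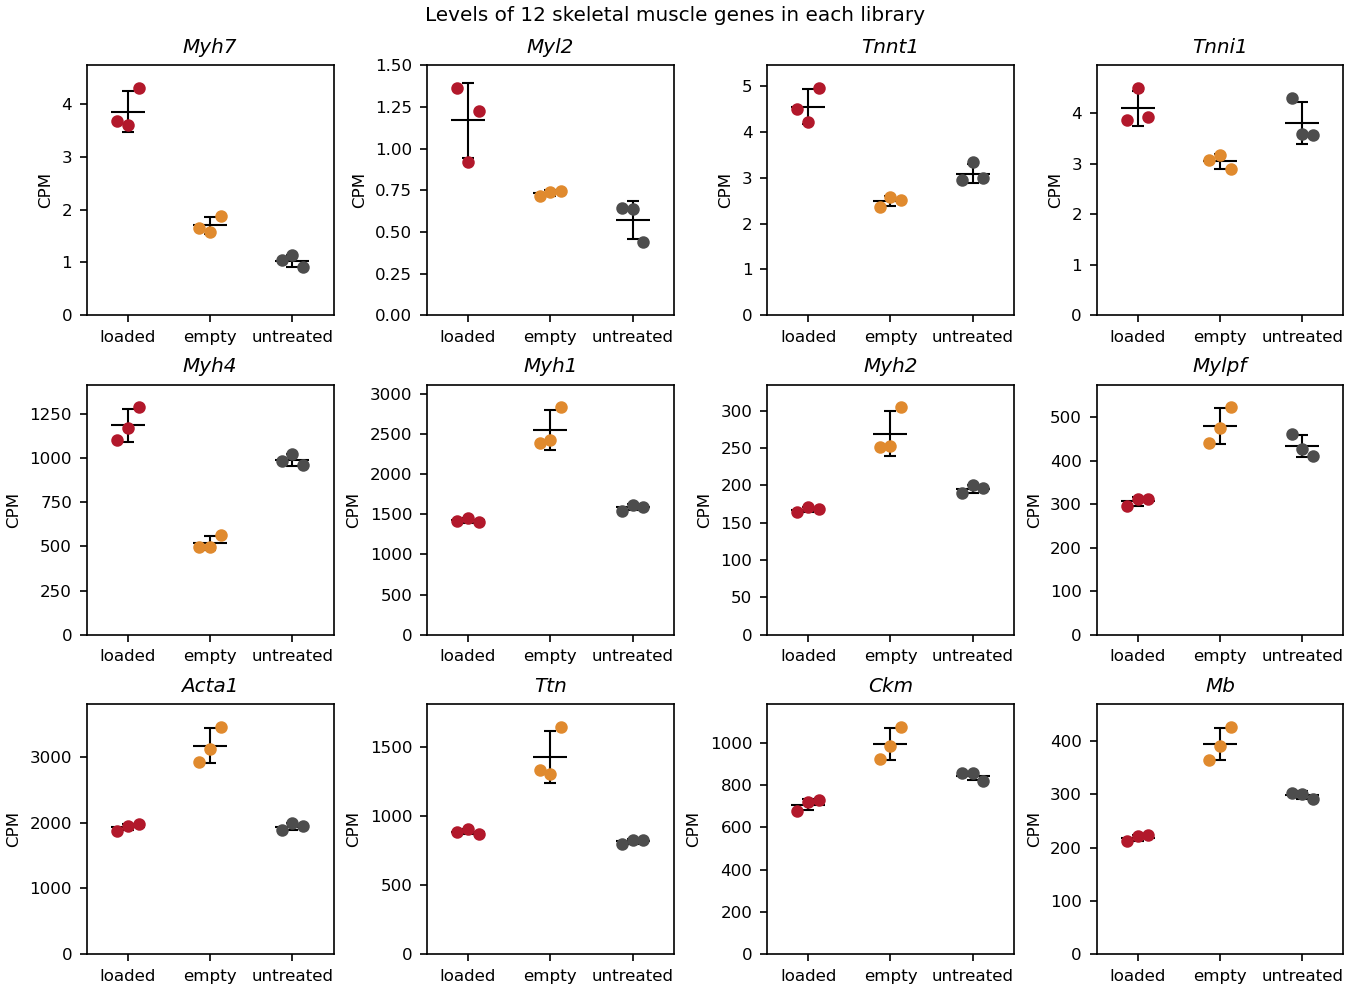
CPM (y axis, from 0) of single muscle genes in each library, 1 panel per gene, with loaded MN, empty MN and untreated libraries from left to right. Dots are libraries, horizontal lines are means and bars are SDs of 3. In the Myh4 panel the empty MN libraries are the lowest at 494 to 566 CPM, and in the Myh1 panel they are the highest at 2389 to 2830 CPM.

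Slow isoforms split into 2 sorts. The slow myosin and troponin genes, all at low levels, had their highest means in loaded MN, whereas Casq2, Mybpc1 and Actn2, which are found in fast fibres or heart as well, followed other orders. Of the 9 slow isoforms, 4 were higher and 2 lower in loaded MN against untreated skin, 3 higher and 2 lower in empty MN against untreated skin, and 5 higher and 3 lower in loaded MN against empty MN skin. The medians of the 9 were 0.26, 0.24 and 0.43. Over all tested genes 19% were higher and 23.3% lower in the first comparison, 20.2% and 28.1% in the second, and 22.9% and 18.5% in the third, so 2 of 9 lower is near the background.

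Myh7 (chr14:55208141-55232083, mm39), the slow and cardiac myosin heavy chain, had 3.68, 3.61 and 4.31 CPM in loaded MN, 1.66, 1.58 and 1.89 CPM in empty MN and 1.05, 1.14 and 0.912 CPM in untreated libraries. The groups lay apart in that order, with no overlap. It was 3.75-fold higher in loaded MN than in untreated skin (log2 1.91, SE 0.121, adjusted p = 4.39e-13 by edgeR), the largest called change of any of the 40. In empty MN it was 1.66-fold higher than in untreated skin (log2 0.73, SE 0.132, adjusted p = 3.45e-05), and it was 2.26-fold higher in loaded MN than in empty MN (log2 1.18, SE 0.110, adjusted p = 6.06e-10). The calls for Myh7 held in every alternative fit and with any 1 library left out. Within the 6 heavy chain genes its share was 0.138% ± 0.011 in loaded MN, 0.0509% ± 0.0017 in empty MN and 0.0369% ± 0.0036 in untreated libraries (SD, n = 3 each).

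Some of the Myh7 signal could belong to its neighbour. Of its 50-base stretches, 22.2% also occur in Myh6, the atrial myosin heavy chain, and Myh6 averaged 1.01 ± 0.094 CPM in loaded MN, 0.747 ± 0.088 in empty MN and 0.583 ± 0.14 in untreated libraries. Myh6 was called higher in loaded MN against untreated skin (log2 0.79, adjusted p = 0.00104 by edgeR) and in neither other comparison. Its part in the Myh7 result was not tested.

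Tnnt1, the slow troponin T, had 4.49, 4.21 and 4.96 CPM in loaded MN, 2.37, 2.59 and 2.52 CPM in empty MN and 2.95, 3.34 and 2.99 CPM in untreated libraries. Loaded MN was highest and empty MN lowest without overlap, the mirror of the order seen for fast Tnnt3. The log2 fold changes were 0.56 (SE 0.0905, adjusted p = 9.48e-06 by edgeR) in loaded MN against untreated, -0.31 (SE 0.0963, adjusted p = 0.00825) in empty MN against untreated and 0.87 (SE 0.0915, adjusted p = 5.66e-09) in loaded MN against empty MN skin. The empty MN call was lost without untreated replicate 2 (-0.26, adjusted p = 0.0570) and with library size alone (-0.21).

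Tnni1, the slow inhibitory troponin, had 3.87, 4.50 and 3.93 CPM in loaded MN, 3.08, 3.17 and 2.88 CPM in empty MN and 4.29, 3.58 and 3.56 CPM in untreated libraries. Empty MN was below both other groups, which overlapped. It was called lower in empty MN than in untreated skin (log2 -0.32, adjusted p = 0.00577 by edgeR) and higher in loaded MN than in empty MN (log2 0.43, adjusted p = 0.000397), and was not called in loaded MN against untreated skin (log2 0.11, adjusted p = 0.397), though it was called there with library size alone (0.24, adjusted p = 0.0296). The first call was lost without empty MN replicate 3 (-0.24, adjusted p = 0.0509) or untreated replicate 1 (-0.23, adjusted p = 0.0599), and with library size alone (-0.22).

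Myl2, the slow and ventricular regulatory light chain, had 1.36, 0.921 and 1.22 CPM in loaded MN, 0.713, 0.737 and 0.747 CPM in empty MN and 0.644, 0.635 and 0.439 CPM in untreated libraries. Loaded MN was above the rest, at 2.04-fold of untreated (log2 1.03, SE 0.186, adjusted p = 4.23e-05 by edgeR) and 1.60-fold of empty MN (log2 0.67, SE 0.176, adjusted p = 0.00245). In empty MN against untreated skin it was not called (0.36, adjusted p = 0.141). Ccdc63 lies over part of Myl2 on the opposite strand with 3085 counts in all libraries together, against 676 for Myl2, and without strand the reads of the pair could not be told apart. Ccdc63 itself was not called in loaded MN against untreated skin (log2 -0.20, adjusted p = 0.0682 by edgeR) and was lower in loaded MN than in empty MN (log2 -0.48, adjusted p = 2.72e-05). The part of Ccdc63 in the Myl2 values was not tested.

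Tnnc1, the calcium-binding troponin of slow and heart muscle, had 0.581, 0.724 and 0.959 CPM in loaded MN, 0.475, 0.491 and 0.498 CPM in empty MN and 0.535, 0.564 and 0.497 CPM in untreated libraries. It was called in loaded MN against untreated skin (log2 0.51, SE 0.203, adjusted p = 0.0448 by edgeR) and against empty MN skin (log2 0.63, SE 0.201, adjusted p = 0.0123), and not in empty MN against untreated skin (-0.12). Loaded MN replicate 3 carried much of this: without it the estimates were 0.30 (adjusted p = 0.328) and 0.42 (adjusted p = 0.145). The call against untreated skin was also lost without loaded MN replicate 2 or any 1 untreated library (adjusted p = 0.0666 to 0.125). Nor was it made without the filter (adjusted p = 0.0555 by edgeR) or by the DESeq2 Wald test (adjusted p = 0.0836). The whole of Tnnc1 lies within Nisch, which is on the opposite strand and had 148394 counts against 483 for Tnnc1. Nisch had log2 fold changes of 0.25, 0.26 and -0.01 in loaded MN against untreated, empty MN against untreated and loaded MN against empty MN skin, and its part in the Tnnc1 values was not tested.

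Myl3, the slow and ventricular essential light chain, was very low at 0.246, 0.285 and 0.224 CPM in loaded MN, 0.162, 0.246 and 0.332 CPM in empty MN and 0.328, 0.165 and 0.139 CPM in untreated libraries. The groups overlapped and no comparison was called (adjusted p = 0.600 to 0.965 by edgeR). It had 193 counts in all, and Pth1r on the opposite strand, which overlaps it, had 3515.

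Casq2, the calcium store protein of slow fibres and heart, had 3.69, 4.40 and 3.79 CPM in loaded MN, 4.64, 5.23 and 5.74 CPM in empty MN and 6.15, 5.38 and 5.75 CPM in untreated libraries. It was lower in loaded MN than in untreated skin (log2 -0.54, adjusted p = 1.02e-05 by edgeR), the lowest value of the 40 there, and lower than in empty MN (log2 -0.40, adjusted p = 0.000477). Mybpc1, the slow-type myosin-binding protein C, had 246, 251 and 255 CPM in loaded MN, 396, 406 and 477 CPM in empty MN and 267, 276 and 274 CPM in untreated libraries. It was higher in empty MN than in untreated skin (log2 0.65, adjusted p = 2.91e-07) and lower in loaded MN than in empty MN (log2 -0.77, adjusted p = 6.24e-08). Mybpc1 was not called in loaded MN against untreated skin (-0.12, adjusted p = 0.103), though it was called without the filter, with only 2 groups and without empty MN replicate 1 or 3 (-0.12 to -0.11). Actn2, the alpha-actinin of all striated fibres, had 98.5, 98.2 and 102 CPM in loaded MN, 177, 183 and 213 CPM in empty MN and 122, 129 and 129 CPM in untreated libraries, and was called in all 3 comparisons (-0.34, 0.59 and -0.94). Mybpc1 and Actn2 thus kept the order of the fast genes.

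Ratios of a slow gene to its fast partner within a library need no scaling between libraries, but they move with either partner. For each 100 counts of Tnnt3 there were 0.504 ± 0.030 counts of Tnnt1 in loaded MN, 0.176 ± 0.0099 in empty MN and 0.292 ± 0.019 in untreated libraries. For each 100 counts of Tnni2 there were 0.923 ± 0.086 of Tnni1 in loaded MN, 0.427 ± 0.047 in empty MN and 0.661 ± 0.043 in untreated libraries. Tnnc1 per 100 Tnnc2 was 0.170 ± 0.034 in loaded MN, 0.0682 ± 0.0040 in empty MN and 0.0998 ± 0.0041 in untreated libraries (SD, n = 3 each). In all 3 troponin pairs the loaded MN libraries were highest, the empty MN libraries lowest and the groups did not overlap. The Tnnc pair rests on only 43 to 90 counts of Tnnc1 in each library. In the Tnni pair, loaded MN and untreated skin differed in Tnni2 (log2 -0.37), while Tnni1 was not called (0.11, adjusted p = 0.397 by edgeR).

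The myosin pairs were ordered otherwise. Myh7 per 100 Myh4 was 0.325 ± 0.015 in loaded MN, 0.329 ± 0.010 in empty MN and 0.104 ± 0.0082 in untreated libraries, so the 2 treated groups overlapped and both lay above untreated. Myl2 per 100 Mylpf was 0.384 ± 0.084 in loaded MN, 0.153 ± 0.0094 in empty MN and 0.132 ± 0.022 in untreated libraries, and there empty MN and untreated overlapped. Mybpc1 per 100 Mybpc2 stood at 81.0 ± 1.5 in loaded MN, 140 ± 3.4 in empty MN and 79.1 ± 1.0 in untreated libraries, and Actn2 per 100 Actn3 at 45.9 ± 1.3, 86.1 ± 1.4 and 55.1 ± 1.4 in loaded MN, empty MN and untreated libraries. Over the 9 pairs, the slow gene's ratio in loaded MN lay above every untreated library in 5, below in 2 and overlapped in 2. For empty MN against untreated the numbers were 3, 4 and 2, and for loaded MN against empty MN 6, 2 and 1. Among the 6 was Casq2 per 100 Casq1, at 5.33 ± 0.52 in loaded MN, 4.49 ± 0.18 in empty MN and 6.90 ± 0.40 in untreated libraries. Casq2 itself was lower in loaded MN than in empty MN (log2 -0.40). Myl3 per 100 Myl1, also among them, was 0.129 ± 0.017, 0.0850 ± 0.022 and 0.0850 ± 0.038, with Myl3 itself not called. These orders were not counted over other gene pairs.

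**Figure D4:**
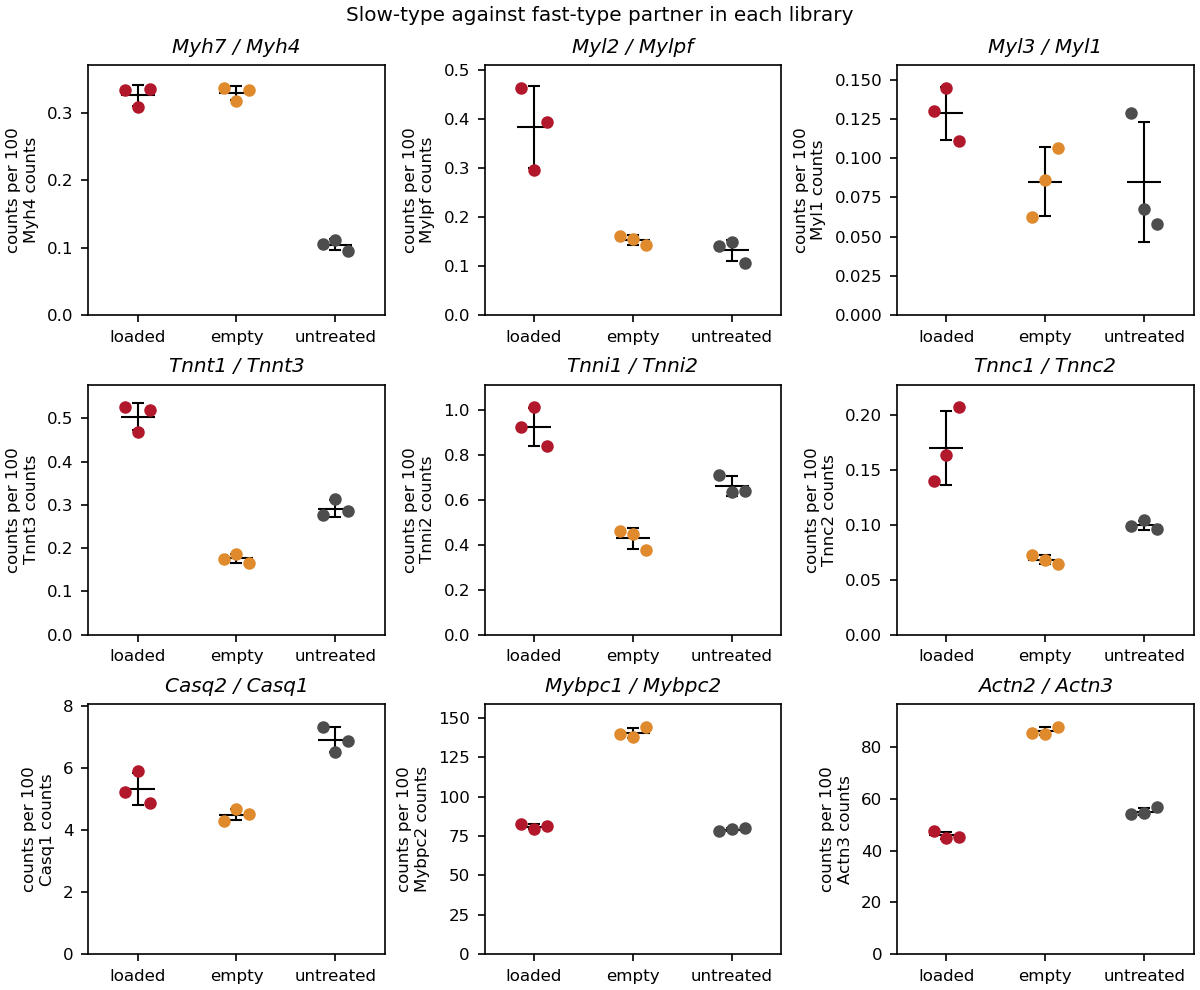
Counts of a slow-type gene per 100 counts of its fast-type partner (y axis, from 0) in each library, 1 panel per pair, with loaded MN, empty MN and untreated from left to right. Dots are libraries, horizontal lines are means and bars are SDs of 3. The troponin pairs fall in the order loaded MN, untreated, empty MN, while Mybpc1 and Actn2 ratios are highest in empty MN at 140 and 86.1.

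Developmental myosins were low, and 1 call was made among their 3 comparisons each. Perinatal Myh8 had 12.7, 17.6 and 13.9 CPM in loaded MN, 17.7, 16.9 and 22.6 CPM in empty MN and 14.1, 17.5 and 17.1 CPM in untreated libraries. The groups overlapped and no comparison was called (log2 -0.14, 0.23 and -0.37, adjusted p = 0.144 to 0.607 by edgeR), though the last was called without loaded MN replicate 2 (-0.52, adjusted p = 0.0438). Embryonic Myh3 had 1.93, 1.82 and 1.66 CPM in loaded MN, 2.72, 2.45 and 2.27 CPM in empty MN and 1.79, 2.31 and 2.21 CPM in untreated libraries. It was lower in loaded MN than in empty MN (log2 -0.46, SE 0.117, adjusted p = 0.00199). Against untreated skin Myh3 was not called in loaded MN (-0.22, adjusted p = 0.150) or in empty MN (0.24, adjusted p = 0.0967), though the first was called without untreated replicate 1 (-0.33) and the second without empty MN replicate 3 (0.34). Of the heavy chain counts, Myh8 held 0.527% ± 0.086 in loaded MN, 0.565% ± 0.039 in empty MN and 0.580% ± 0.057 in untreated libraries, differences within 1 SD of the loaded MN libraries, and Myh3 held less than 0.1% in every library.

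Structural genes that fast and slow fibres share rose in empty MN skin as a block. Of the 7, none was called higher and 1, the titin cap Tcap, was lower in loaded MN against untreated skin, all 7 were higher in empty MN against untreated skin, and all 7 were lower in loaded MN against empty MN skin. The medians were -0.06, 0.69 and -0.71. Matching shares over all tested genes were 19% higher and 23.3% lower, 20.2% and 28.1%, and 22.9% and 18.5%. The Tcap call in empty MN against untreated skin (0.11) was lost without loaded MN replicate 2, empty MN replicate 2, untreated replicate 1 or untreated replicate 3 (adjusted p = 0.0552 to 0.175).

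Acta1, the actin of skeletal thin filaments, had 1882, 1944 and 1976 CPM in loaded MN, 2930, 3126 and 3458 CPM in empty MN and 1885, 1998 and 1943 CPM in untreated libraries. Empty MN stood above both other groups, which overlapped, with log2 fold changes of -0.01 (adjusted p = 0.936 by edgeR) in loaded MN against untreated, 0.71 (adjusted p = 8.62e-12) in empty MN against untreated and -0.71 (adjusted p = 1.07e-11) in loaded MN against empty MN skin. With library size alone, the first became 0.13 and was called. Titin, the giant spring of the sarcomere encoded by Ttn, had 888, 906 and 870 CPM in loaded MN, 1334, 1309 and 1648 CPM in empty MN and 800, 827 and 830 CPM in untreated libraries, the largest rise of the 40 in empty MN against untreated skin (log2 0.80, adjusted p = 2.72e-05). Nebulin, the thin filament ruler encoded by Neb, had 497, 514 and 488 CPM in loaded MN, 657, 614 and 801 CPM in empty MN and 458, 463 and 462 CPM in untreated libraries (log2 0.12, 0.58 and -0.47).

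For Ttn and Neb every loaded MN library was above every untreated one, and the difference, 0.12 for each, was not called in the 3-group fit (adjusted p = 0.295 and 0.370 by edgeR). It was called with only those 2 groups in the fit (adjusted p = 0.00115 and 0.000968), without the filter, and without empty MN replicate 3. The M band genes Myom1 and Myom2, which tie thick filaments together, rose by 0.69 and 0.71 on the log2 scale in empty MN against untreated skin, and the Z disc gene Ldb3 by 0.63. Ldb3 was not called in loaded MN against untreated skin (-0.13, adjusted p = 0.204), though it was called without the filter, with only 2 groups and without empty MN replicate 1 or 3 (-0.13 to -0.12).

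Among the tropomyosins, which wind along the thin filament, Tpm2 rose most in empty MN (1193 ± 88 CPM, against 782 ± 18 CPM in untreated libraries, log2 0.61, adjusted p = 1.35e-11 by edgeR). It averaged 735 ± 27 CPM in loaded MN (SD, n = 3 each). Tpm1 averaged 890 ± 21, 1078 ± 56 and 953 ± 7.5 CPM in loaded MN, empty MN and untreated libraries, with log2 fold changes of -0.10, 0.18 and -0.28, all called. The first was lost with DESeq2 size factors (adjusted p = 0.0839), without the filter, and without loaded MN replicate 1, loaded MN replicate 2 or untreated replicate 2 (adjusted p = 0.0611 to 0.174), and turned to 0.034 with library size alone. Tpm3, the slow-type tropomyosin that many other cells also make, averaged 123 ± 2.0, 121 ± 1.1 and 122 ± 1.2 CPM in loaded MN, empty MN and untreated libraries and was not called (adjusted p = 0.439 to 0.762). With library size alone it was called higher in loaded MN (0.15, adjusted p = 0.000199) and in empty MN (0.09, adjusted p = 0.021) against untreated skin. Tpm1 and Tpm2 are also made by smooth muscle.

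The coupling and energy genes followed the fast isoforms. Of the 4, none was higher and 3 were lower in loaded MN against untreated skin, all 4 were higher in empty MN against untreated skin and all 4 lower in loaded MN against empty MN skin. Background shares of all tested genes higher and lower were 19% and 23.3%, 20.2% and 28.1%, and 22.9% and 18.5%. Mb, the oxygen-binding myoglobin, had 213, 221 and 223 CPM in loaded MN, 365, 392 and 427 CPM in empty MN and 303, 302 and 291 CPM in untreated libraries. The groups lay clearly apart, with log2 fold changes of -0.45 (adjusted p = 1.56e-08 by edgeR), 0.40 (adjusted p = 3.88e-08) and -0.85 (adjusted p = 2.82e-13). Ckm, the muscle creatine kinase that restores ATP, had 676, 718 and 728 CPM in loaded MN, 925, 984 and 1075 CPM in empty MN and 855, 855 and 821 CPM in untreated libraries (log2 -0.25, 0.24 and -0.49, all called).

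The calcium release channel Ryr1 had 286, 305 and 287 CPM in loaded MN, 389, 379 and 463 CPM in empty MN and 334, 348 and 329 CPM in untreated libraries. Its voltage sensor partner Cacna1s had 69.2, 70.8 and 70.5 CPM in loaded MN, 86.9, 88.5 and 106 CPM in empty MN and 75.4, 79.8 and 78.4 CPM in untreated libraries. In both, loaded MN was lowest and empty MN highest without overlap. Ryr1 was called in all 3 comparisons (log2 -0.20, 0.28 and -0.49), the first not with library size alone (-0.07, adjusted p = 0.517), and Cacna1s in empty MN against untreated (0.27) and loaded MN against empty MN (-0.42) but not in loaded MN against untreated skin (-0.15, adjusted p = 0.0954 by edgeR), though it was called there with DESeq2 size factors, without the filter, by the Wald test, with only 2 groups and without empty MN replicate 1 or 3. Without untreated replicate 1 neither was called in empty MN against untreated skin (adjusted p = 0.0625 and 0.0581). The Ryr1 call in loaded MN against untreated skin was lost without any 1 loaded MN library other than replicate 2 or any 1 untreated library (adjusted p = 0.0521 to 0.148).

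Other genes of the muscle fibre, from lists drawn up by function, mostly shifted in the same directions. These lists held 19, 30, 16, 13 and 9 tested genes. Over them together 45 genes were called in loaded MN against untreated skin with TMM factors and 25 with library size alone. Of all 26081 tested genes, 11024 and 12460 were called in those 2 fits. In the main fit, 19% of all tested genes were higher and 23.3% lower in loaded MN against untreated skin. In empty MN against untreated skin the shares were 20.2% and 28.1%, and in loaded MN against empty MN skin 22.9% and 18.5%. Of 19 further genes of calcium handling and coupling, 1 was higher and 8 lower in loaded MN against untreated skin, 16 higher and 1 lower in empty MN against untreated skin, and none higher and 18 lower in loaded MN against empty MN skin, with medians of -0.15, 0.49 and -0.63. Among them Jph2, which holds the calcium release membranes together, averaged 42.1 ± 1.5 CPM in loaded MN, 73.4 ± 6.5 CPM in empty MN and 42.4 ± 1.7 CPM in untreated libraries. Jsrp1, Cacnb1, a subunit of the voltage sensor, and the chloride channel Clcn1 rose by 0.53, 0.49 and 0.52 on the log2 scale in empty MN against untreated skin.

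Of 30 further tested sarcomere, Z disc and M band genes, 2 were higher and 17 lower in loaded MN against untreated skin, 24 higher and 1 lower in empty MN against untreated skin, and 1 higher and 25 lower in loaded MN against empty MN skin, with medians of -0.21, 0.47 and -0.69. Shares of all tested genes higher and lower were 19% and 23.3%, 20.2% and 28.1%, and 22.9% and 18.5%. Csrp3, a Z disc stretch protein, averaged 18.8 ± 0.65 CPM in loaded MN, 43.8 ± 3.9 CPM in empty MN and 28.7 ± 1.9 CPM in untreated libraries. Myom3 and Lmod3 rose by 0.76 and 0.62 on the log2 scale in empty MN against untreated skin. The stress-responsive Ankrd1 was the 1 gene of the list called lower in empty MN against untreated skin, at 2.28 ± 0.13 CPM in loaded MN and 3.24 ± 0.18 CPM in empty MN, against 5.93 ± 0.18 CPM in untreated libraries (log2 -1.38 for loaded MN and -0.87 for empty MN, adjusted p = 2.76e-13 and 4.51e-10 by edgeR). The 2 genes called higher in loaded MN against untreated skin were Myl6b (0.45) and Tnnt2 (0.33), named after their values were seen.

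Of 16 genes of muscle energy metabolism, 1 was higher and 7 lower in loaded MN against untreated skin, 13 higher and none lower in empty MN against untreated skin, and 1 higher and 14 lower in loaded MN against empty MN skin. Ckmt2, the mitochondrial creatine kinase, averaged 21.7 ± 0.98 CPM in loaded MN, 45.6 ± 4.6 CPM in empty MN and 26.7 ± 0.70 CPM in untreated libraries, and the fast enolase Eno3 averaged 253 ± 9.2, 378 ± 29 and 294 ± 6.4 CPM in loaded MN, empty MN and untreated libraries. Cox7a1 and Ak1 rose by 0.53 and 0.31 on the log2 scale in empty MN against untreated skin. Of 13 tested genes of the neuromuscular junction and fibre membrane, none was higher and 5 lower in loaded MN against untreated skin, 8 higher and none lower in empty MN against untreated skin, and none higher and 11 lower in loaded MN against empty MN skin. Beside both lists, the shares of all tested genes higher and lower were 19% and 23.3%, 20.2% and 28.1%, and 22.9% and 18.5%. Chrne, the adult subunit of the acetylcholine receptor, averaged 0.444 ± 0.052 CPM in loaded MN, 0.995 ± 0.13 CPM in empty MN and 0.601 ± 0.092 CPM in untreated libraries. The sarcoglycan Sgca, the repair protein Dysf and the caveolin Cav3 rose by 0.31, 0.30 and 0.23 on the log2 scale in empty MN against untreated skin.

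Of 9 tested myogenic regulators, none was higher and 4 lower in loaded MN against untreated skin, 5 higher and none lower in empty MN against untreated skin, and none higher and 6 lower in loaded MN against empty MN skin. Again the shares of all tested genes higher and lower were 19% and 23.3%, 20.2% and 28.1%, and 22.9% and 18.5%. Myod1, a master regulator of muscle identity that binds E-boxes, averaged 0.976 ± 0.046 CPM in loaded MN, 2.81 ± 0.47 CPM in empty MN and 1.19 ± 0.10 CPM in untreated libraries (log2 1.24 in empty MN against untreated skin, adjusted p = 5.52e-09 by edgeR). Vgll2 averaged 3.09 ± 0.33, 7.11 ± 0.89 and 4.76 ± 0.31 CPM, and Myf6 3.65 ± 0.22, 5.25 ± 0.57 and 4.61 ± 0.21 CPM in loaded MN, empty MN and untreated libraries. The functional lists, like the 40 genes, were chosen with earlier results of these data known, so their directions are not independent support.

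Markers of other cell types moved between the groups as well. White fat markers summed to 469 to 500 CPM in loaded MN, 227 to 243 CPM in empty MN and 359 to 391 CPM in untreated libraries. All 6 were lower in empty MN against untreated skin, 5 of 6 were higher in loaded MN against untreated skin, and all 6 were higher in loaded MN against empty MN skin, where most muscle genes went the opposite way. Among all tested genes 28.1% were lower in the first of these comparisons, and 19% and 22.9% were higher in the other 2. Adipoq averaged 32.9 ± 2.1 CPM in loaded MN, 10.3 ± 0.28 CPM in empty MN and 22.6 ± 1.6 CPM in untreated libraries, and Plin1, Cfd, Cidec and Lep were likewise lower in empty MN than in untreated skin (log2 -0.84, -1.01, -0.99 and -1.38). Keratinocyte markers summed to 26270 to 28139 CPM in loaded MN, 43524 to 45001 CPM in empty MN and 37641 to 38694 CPM in untreated libraries, the same order as the muscle sum. Krt1 and Krt10 made up most of that sum. Of these 6 markers, 2 were higher and 3 lower in empty MN against untreated skin, where 20.2% and 28.1% of all tested genes were. Within them Krt1 and Krt10, of the upper epidermis, were highest in empty MN (12578 ± 423 and 22076 ± 433 CPM). Krt14, Dsg3, Krt5 and Trp63 were highest in untreated skin (7223 ± 452, 227 ± 2.6, 5416 ± 135 and 335 ± 5.0 CPM). The part of keratinocytes, and that of fat, in the muscle results was not tested.

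Fibroblast markers summed to 957 to 985 CPM in loaded MN, 1229 to 1321 CPM in empty MN and 1441 to 1490 CPM in untreated libraries, and Col1a1, Col1a2, Col3a1 and Lum were lower in both treated groups. Smooth muscle markers summed to 369 to 379, 361 to 387 and 377 to 381 CPM in loaded MN, empty MN and untreated libraries, nearly level, although single genes differed. In empty MN against untreated skin 5 of the 10 were higher, with Lmod1 at 0.80, and 3 were lower, namely Acta2 (-0.56), Tagln (-0.96) and Smtn (-0.11). Among all tested genes 20.2% were higher and 28.1% lower in that comparison, so 3 of 10 lower is near the background. Heart muscle markers summed to only 8.44 to 8.77, 9.71 to 11.3 and 9.52 to 9.77 CPM, with Tnni3 at 1.23 ± 0.24, 2.19 ± 0.087 and 1.41 ± 0.26 CPM, Actc1 at 0.739 ± 0.084, 1.12 ± 0.12 and 1.14 ± 0.26 CPM and Myl4 at 3.39 ± 0.15, 3.77 ± 0.24 and 4.24 ± 0.26 CPM in loaded MN, empty MN and untreated libraries. Of the same heart list, Myh6 went the other way and was highest in loaded MN, at 1.01 ± 0.094, 0.747 ± 0.088 and 0.583 ± 0.14 CPM in that order of groups. Brown fat markers summed to 71.0 to 72.3, 63.7 to 68.9 and 84.3 to 96.1 CPM, with Cidea, Dio2 and Elovl3 lower in loaded MN than in untreated skin (-0.56, -0.41 and -0.25).

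Longer transcripts tended to have higher log2 fold changes against untreated skin. Over all 40 genes, Spearman's rank correlation coefficient between the longest transcript and the log2 fold change was 0.21 in loaded MN against untreated, 0.38 in empty MN against untreated and -0.12 in loaded MN against empty MN skin. Over the 32 muscle genes at 10 CPM or more, it was 0.58, 0.30 and 0.04, so the order of the first 2 depends on that minimum level. Over 9760 protein-coding genes at that level it was 0.31, 0.26 and -0.01, in the same order of comparisons. These are descriptions across genes, which are not independent replicates, and all share the same libraries. The part of length in the values of long genes such as Ttn and Neb, or of short ones such as Mylpf and Mb, was not tested.

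**Figure D5:**
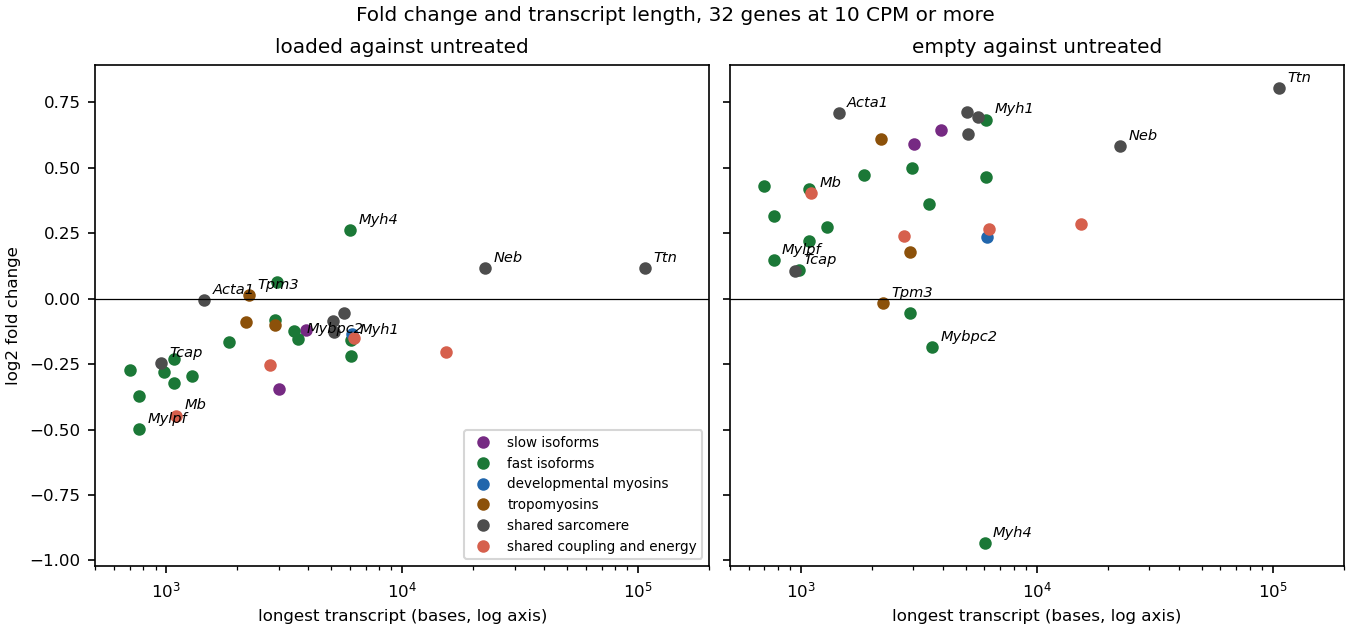
log2 fold change (y axis) against the longest annotated transcript of each of the 32 muscle genes at 10 CPM or more (x axis, bases, log scale), with loaded MN against untreated skin in the left panel and empty MN against untreated skin in the right. Points are genes, coloured by role. Spearman's coefficient is 0.58 in the left panel and 0.30 in the right for these 32 genes, and 0.21 and 0.38 over all 40.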

How the data were processed

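The deposited table gives each gene's raw counts, without normalization, in 1 column for each of the 9 libraries, per the file headers. Polyadenylated RNA was extracted with a miRNeasy kit and xGen Broad-Range was the library kit, per the labels' protocols. HISAT2 placed the reads on mm39 and featureCounts counted them, per the submitters' processing notes; versions, annotation and strand setting are not given there. Listed gene length equalled the whole gene span for 99.85% of genes, so introns were counted with exons.

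Of the 42688 genes with a count, 26081 passed filterByExpr of edgeR (count minimum of 10, total minimum of 15). edgeR 4.0.16 in R 4.3.3 was run on all 9 libraries with TMM factors, 1 coefficient per group and the robust quasi-likelihood test, at a common biological coefficient of variation of 0.0390. P-values were adjusted by Benjamini-Hochberg over all genes tested and called under 0.05. Levels are CPM on TMM-scaled libraries, and errors are SDs over 3 libraries.

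Coding lengths (GENCODE M21, all 40 genes) and promoter sequences (RefSeq) are on GRCm38, so none of their coordinates was mixed with the mm39 ones. Transcript lengths were found for 97.7% of the tested protein-coding genes.

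Per-library values are given for the slow and fast partners, the other myosins, the main structural, coupling and energy genes and any called change of 2-fold or more. Each other list gives up to 4 genes with the smallest p, plus 2-fold changes; some genes that this rule names are not reported here. The 40 genes and all lists were chosen with earlier results of these data known. Replicate numbers are shared between groups and were not used as pairs in the main fit. Alternatives were other scalings, no filter, the DESeq2 1.42.0 Wald test, only 2 groups, the replicate number as a block, and leaving out each library.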

Additional observations from a re-analysis of the deposited data

How the results depend on the processing

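Library size alone moved the median of all tested genes by 0.13 in loaded MN against untreated, 0.10 in empty MN against untreated and 0.029 in loaded MN against empty MN skin. In loaded MN against untreated skin it gave 9 genes higher and 9 lower, a median of -0.0010 over the 40, and 25 calls over the functional lists, against 45 with TMM factors. With library size alone, 12460 of the 26081 tested genes were called in that comparison, against 11024 with TMM factors. There the estimates of Mybpc1 (0.011), Actn3 (0.051), Atp2a1 (0.0077), Tpm1 (0.034), Tpm2 (0.043), Acta1 (0.13), Myom1 (0.077), Myom2 (0.049) and Ldb3 (0.0033) changed sign. In empty MN against untreated skin it left 1 gene lower in place of 4, with a median of 0.40, and turned Actn3 (0.049) and Tpm3 (0.086). In loaded MN against empty MN skin Actn3 became 0.0023. The cause was not tested.

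Values near 0 changed sign elsewhere too. Acta1 in loaded MN against untreated skin was 0.0080 with DESeq2 size factors, 0.0026 without the filter, 0.0096 by the Wald test, 0.0048 with only 2 groups, and -0.028 to 0.014 with 1 library left out, positive without loaded MN replicate 1, empty MN replicate 3 or untreated replicate 2 (0.013, 0.0073 and 0.014). Tpm3 in empty MN against untreated skin was 0.013 with DESeq2 size factors, 0.0078 by the Wald test, 0.013 with only 2 groups and -0.027 to 0.024 with 1 library left out, positive without empty MN replicate 3. In loaded MN against empty MN skin, fits that left out a library gave -0.0714 to 0.0174 for Actn3, -0.20 to 0.27 for Myl3 and -0.015 to 0.068 for Mybpc2.

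With 1 library left out, 3 to 7 genes were called higher and 14 to 22 lower in loaded MN against untreated, 24 to 28 higher and 3 to 4 lower in empty MN against untreated, and 5 to 6 higher and 29 to 30 lower in loaded MN against empty MN skin. Of the 26446 to 26693 genes tested in those fits, 9552 to 11542, 11630 to 12388 and 9579 to 11330 were called in either direction. Of the 24, 31 and 35 genes called in these comparisons, 13, 27 and 35 stayed called in every other alternative, and 16, 25 and 34 whichever library was left out. Same-numbered libraries did not deviate together (r = -0.0653 to 0.0317 over 9 pairs). That does not settle whether they were handled together, which the counts cannot show. With the replicate number as a block, 26, 30 and 35 genes were called, where 10960, 12490 and 10753 of all 26081 tested genes were. In that fit the calls of Tnnc1 in loaded MN (0.50) and Mylpf in empty MN (0.14) against untreated skin were lost. Those of Mybpc1, Ldb3 and Cacna1s in loaded MN against untreated skin were gained.

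Myosin shares per coding length moved by less than 1 SD, a check chosen after seeing the data. The planned version with RefSeq protein lengths was not run. Genes such as Myl3, Tnnc1 and Myl2, at around 1 CPM or less, are limited by depth. Each also overlaps a gene on the opposite strand, whose part in its values was not tested.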
